A study of Mus musculus with 2 samples.

Results

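The 9 genes described here encode complement proteins that the liver makes and secretes into plasma: C3, C4b, Cfb, Cfi, Hc (the mouse gene for complement C5), C8a, C8b, C9 and Mbl2. They were chosen by gene symbol, without use of any measured value, from the 32285 genes counted in each library, and 41 further complement genes in 7 lists stand beside them. UMIs (unique molecular identifiers, each tagging 1 captured transcript) were counted in 2 single-cell libraries, 1 made from the liver of WT mice and 1 from liver plus tumor of N-LKO mice. N-LKO mice carry floxed Nus1, the gene for NgBR, and an albumin promoter-driven Cre, so the deletion is aimed at hepatocytes, and NgBR is a subunit of the enzyme that makes the glycosylation lipid dolichol. The study used C57BL6 mice and describes males, given chow for 8 weeks and then a diet for 16 weeks that the titles call HFD and the treatment labels call WD, for both genotypes alike. The liver was perfused with collagenase, and hepatocytes, nonparenchymal cells and, for N-LKO, tumor cells were mixed at set ratios before loading. Genotype, tumor tissue and library differed together and cannot be told apart, and since each group has 1 library, the differences have no replicate check and no p-value was computed.

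Complement is a cascade of plasma proteins that marks and lyses microbes. The lectin route starts with mannan-binding lectin, of which Mbl2 encodes the C form, and cleaves C4 (C4b) and C2. The alternative route uses factor B (Cfb), and all routes meet at C3, which factor I (Cfi) holds in check by cutting its activated fragment. C5 (Hc), C8 (of which C8a and C8b encode 2 chains) and C9 build the membrane attack complex. Hepatocytes are the main source of these proteins, and C3, C4 and factor B are known to rise in the acute phase response.

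The members lie on 6 chromosomes. Positions are those of GENCODE M21 on GRCm38, in which 32235 of the 32285 gene IDs of the files were found, while the submitters' processing notes name mm9, so these coordinates are the annotation's and not the files'. C3 lies on the reverse strand at chr17:57203970-57228136, and the same chromosome and strand hold C4b at chr17:34728380-34743882 and Cfb at chr17:34856374-34862518. Mbl2 lies on the forward strand at chr19:30232942-30239687, and Cfi on the forward strand at chr3:129835884-129875332. Hc is at chr2:34983331-35061438 on the reverse strand, and C9 is at chr15:6445327-6498751 on the forward strand. C8b, on the forward strand at chr4:104766317-104804548, and C8a, on the reverse strand at chr4:104815679-104876398, are neighbors whose 3′ ends face each other. The assay reads the 3′ end of a transcript, which for C3 is in the last of 41 exons, at chr17:57203970-57204154.

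Promoter windows of 300 bases, 250 before and 50 after the annotated start, were found by symbol in the RefSeq table (GRCm38.p6) for 6 of the 9 members. Those of C3, C8a and Mbl2 are shown, because C3 had the highest and Mbl2 the lowest ratio of N-LKO to WT and C8a was lower in N-LKO at a higher level than C8b. Capitals mark matches, on either strand, to C/EBP (TTNNGCAA), STAT (TTCNNNGAA), an HNF1 half-site (GTTAAT), HNF4 (CAAAGNNCA) or the TATA box (TATAAA), of which none shown overlaps another.
C3, chr17:57228087-57228386, reverse strand: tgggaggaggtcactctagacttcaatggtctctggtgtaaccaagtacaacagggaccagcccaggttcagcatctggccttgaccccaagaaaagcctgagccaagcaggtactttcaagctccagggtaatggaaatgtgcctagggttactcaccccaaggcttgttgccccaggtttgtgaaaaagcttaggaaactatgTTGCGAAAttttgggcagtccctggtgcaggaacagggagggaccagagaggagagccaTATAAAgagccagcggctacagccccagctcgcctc
C8a, chr4:104876349-104876648, reverse strand: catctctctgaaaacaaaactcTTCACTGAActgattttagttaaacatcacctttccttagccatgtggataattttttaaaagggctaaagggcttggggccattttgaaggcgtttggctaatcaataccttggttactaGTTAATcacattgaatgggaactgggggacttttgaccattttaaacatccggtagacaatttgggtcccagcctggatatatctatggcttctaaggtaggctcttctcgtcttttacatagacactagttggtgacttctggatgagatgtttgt
Mbl2, chr19:30232678-30232977, forward strand: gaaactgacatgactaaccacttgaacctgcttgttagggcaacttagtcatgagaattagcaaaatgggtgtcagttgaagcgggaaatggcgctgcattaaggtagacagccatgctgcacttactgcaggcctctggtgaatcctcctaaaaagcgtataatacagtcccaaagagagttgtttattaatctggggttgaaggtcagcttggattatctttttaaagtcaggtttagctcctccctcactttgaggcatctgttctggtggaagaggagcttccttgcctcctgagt
The C3 window holds a C/EBP match and a TATA box match, and the C8a window holds a STAT match and an HNF1 half-site. The TATA box match of C3 begins 14 bases after the annotated start, not before it. The Mbl2 window holds none of the 5 letter strings. Of the other windows, that of C9 holds a C/EBP match, that of C8b an HNF1 half-site, and that of Hc an HNF1 half-site and a TATA box match. Of all 32851 windows of this length in the table, 10.8% hold a C/EBP match, 8.30% a STAT match, 7.099% an HNF1 half-site, 6.36% an HNF4 match and 13.6% a TATA box match. These matches are descriptions of letters, not of bound sites.

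The WT library held 85522287 UMIs over 100171 barcodes and the N-LKO library 87575064 over 90147, and 2499 barcode sequences occurred in both. After filtering and removal of doublets, 18435 WT and 19850 N-LKO cells were left, with a median of 1400 and 1454 UMIs, and 483 and 563 of them carried a shared barcode sequence. Clustering without the complement genes gave 24 clusters, of which 6 were hepatocyte-like, with 9972 WT and 4155 N-LKO cells. Each of these 6 clusters came almost wholly from 1 library: clusters 0, 9, 18 and 21 held 8201, 1182, 333 and 155 WT cells against 65, 21, 1 and 3 N-LKO cells, and clusters 5 and 6 held 2011 and 2054 N-LKO cells against 100 and 1 WT cells. Cluster 6 goes partly against its name. In it 5 of 10 hepatocyte markers were raised, its leading genes were Grip1, Garem1 and Gramd1c, and Alb, the albumin gene, was at 4110 CPM (UMIs per 1000000 UMIs of the same cells), under the 4319 CPM of N-LKO T-like cells. Of the same marker list, Hnf4a (256 CPM) and Cps1 (2501 CPM) were higher in it than in N-LKO cells of cluster 5 (174 and 1792 CPM). Results are therefore also given without cluster 6, for the clusters of moderate Malat1. Nus1 was at 73.0 CPM in WT against 33.7 in N-LKO hepatocyte-like cells, with the log2 ratio at −1.11 (−1.305 to −0.93). In T-like cells, where albumin-Cre is not known to act, it was also lower (79.8 and 44.2 CPM). In each other class compared the interval of the Nus1 log2 ratio held 0, with ratios such as 0.11 in macrophage-like and 0.08 in endothelial-like cells. The 3′ end of Nus1 lies outside the deleted exon, so RNA of the deleted allele may still be counted. All intervals are at 95% and cover counting error only.

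Free RNA, released by broken cells into every droplet, reached all cells of these libraries and has to be read beside each level. Barcodes under 500 UMIs (18526 in WT and 13674 in N-LKO) served as its profile. The files hold no barcode under 326 UMIs in WT or under 377 in N-LKO. Whether the profile also holds small or damaged cells was not tested, and each free RNA level below rests on it. In these barcodes C3 was at 502 CPM in WT against 1203 in N-LKO, with the log2 ratio at 1.26 (1.21 to 1.32), and Mbl2 was at 269 and 167 CPM, with the log2 ratio at −0.68 (−0.79 to −0.58). Of the 9 members, 1 (C3) was at least 2-fold higher in the N-LKO profile, where 18.6% of all genes with at least 5 CPM were, and none was 2-fold lower, where 16.8% were. Genes of other cells lay in WT hepatocyte-like cells at 83.8% of their level in the WT profile, and in N-LKO hepatocyte-like cells at 50.1%. Read as the share of free RNA, this takes every such UMI as free. Over the 12 reference genes it ran from 60.6% (Fabp4) to 120% (Kdr) in WT and from 31.9% (Dcn) to 67.9% (Lyz2) in N-LKO.

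In hepatocyte-like cells the members that differed most between the libraries went in opposite directions. C3 and C4b were higher in N-LKO, by 1.59-fold and 1.57-fold, while Mbl2, C8b and C8a were lower, by 1.76-fold, 1.62-fold and 1.41-fold. Cfb, Hc and C9 were slightly higher and Cfi differed by less than counting error. The lower levels of C8a, C8b and Mbl2 held their direction under each of the 16 alternative settings tried. Within cluster 5 alone, which was not among the settings, C8a and C8b were not lower in N-LKO (values below). The higher levels of C3 and C4b did not hold when free RNA was subtracted at its estimated share. Among these settings, the one without the 5 CPM minimum repeats the main values, so its agreement was fixed in advance. No member reached 2-fold in either direction, where 21.8% of the 10612 genes with at least 5 CPM were 2-fold higher and 2.42% were 2-fold lower. The median log2 ratio of the 9 members was 0.05, against 0.39 over all those genes, so scaling by TMM (a factor that centers the bulk of genes) lowered each log2 ratio and turned Cfb, Hc and C9 negative.

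Of the early components, C3, on which all routes converge, was at 762 CPM in WT (interval 749 to 775, from 12825 UMIs) and 1208 CPM in N-LKO (1185 to 1231, from 10435 UMIs). The 2 intervals do not overlap, and the log2 ratio was 0.67 (0.63 to 0.70). C4b, the C4 protein of the classical and lectin routes, was at 107 CPM in WT (102 to 112) and 168 CPM in N-LKO (159 to 177), with the log2 ratio at 0.65 (0.55 to 0.75). Its near-identical copy C4a was at 7.84 CPM in WT against 15.3 in N-LKO, and reads of the pair may have been split or dropped in counting, so the level of C4b is uncertain. Mbl2, the lectin that starts its route, was at 293 CPM in WT (285 to 301) and 167 CPM in N-LKO (158 to 176), with the log2 ratio at −0.81 (−0.90 to −0.73). In N-LKO the level of Mbl2 equalled the 167 CPM of the free RNA profile, and C3 was also at the level of its profile there. In WT the level of Mbl2 lay near the 269 CPM of the WT profile.

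Cfb, the protease of the alternative route, was at 148 CPM in WT (142 to 154) and 177 CPM in N-LKO (169 to 186), with the log2 ratio at 0.26 (0.17 to 0.35), which lies under the median of all genes. Cfi, the regulator that cuts C3b and C4b proteins, was at 219 CPM in WT against 216 in N-LKO, with the log2 ratio at −0.02 (−0.10 to 0.06), so the libraries did not differ beyond counting error.

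Among the terminal components, the C8 chains stood apart from C5 and C9. C8a was at 467 CPM in WT (457 to 478) and 331 CPM in N-LKO (319 to 344), with the log2 ratio at −0.50 (−0.56 to −0.43). C8b was at 77.4 CPM (73.3 to 81.8) and 47.7 CPM (43.2 to 52.5), with the log2 ratio at −0.70 (−0.86 to −0.54). The third chain, C8g, which is not a member, was likewise lower at 397 and 292 CPM, with the log2 ratio at −0.44 (−0.51 to −0.38), so each of the 3 C8 genes was lower in N-LKO. Hc was at 389 CPM in WT (380 to 399) and 435 CPM in N-LKO (421 to 449), with the log2 ratio at 0.16 (0.10 to 0.22). C9, the pore-forming subunit, was at 513 CPM in WT (502 to 523) and 532 CPM in N-LKO (516 to 547), with the log2 ratio at 0.05 (0.00 to 0.10) whose lower bound touches 0.

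**Figure D1:**
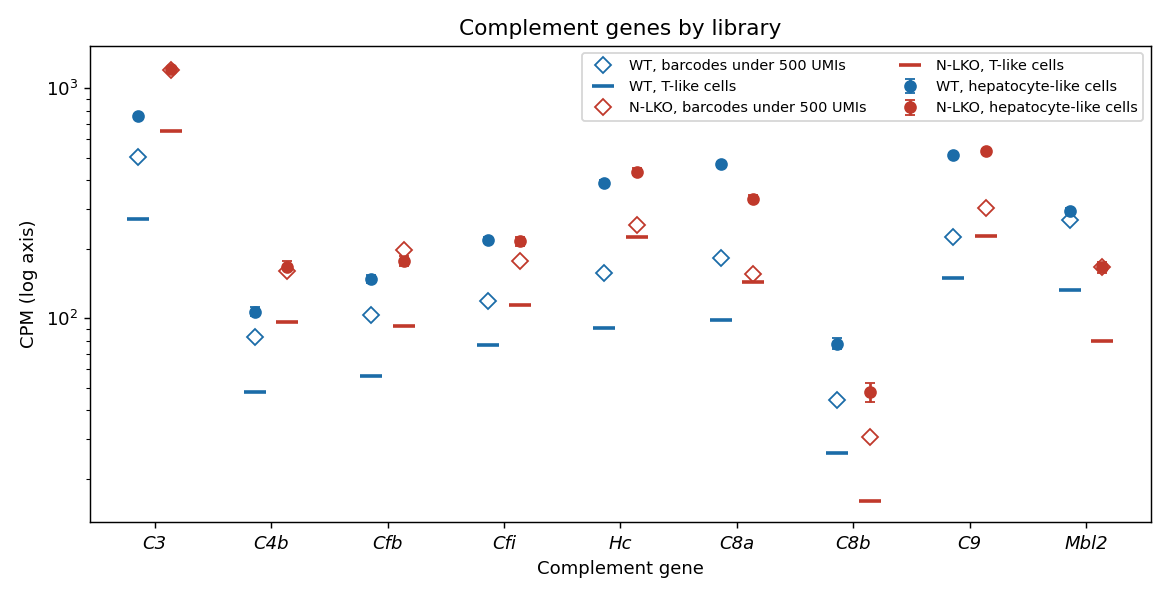
CPM of the 9 members on a log axis, with WT in blue and N-LKO in red. Filled points with 95% Poisson bars are hepatocyte-like cells, open diamonds are barcodes under 500 UMIs and dashes are T-like cells; C3 rises from 762 to 1208 CPM and Mbl2 falls from 293 to 167 CPM, and in N-LKO the diamonds of C3, C4b, Cfb and Mbl2 lie on or near the filled points.

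Shares of cells with a UMI differed in the same directions for C3, Mbl2 and C8a. After each cell was thinned to 1000 UMIs, C3 was seen in 49.2% of WT hepatocyte-like cells (48.2 to 50.2) and 61.3% of N-LKO ones (59.8 to 62.7). Without thinning the shares were 63.9% and 78.5%. T-like cells, taken as a background class, still gave 23.4% in WT (20.8 to 26.1) and 47.7% in N-LKO (44.8 to 50.6) after thinning. Their median depths were 1164 and 1235 UMIs, against 1520 and 1793 in hepatocyte-like cells. In both libraries the interval of hepatocyte-like cells lay above that of T-like cells. Mbl2 was seen in 24.8% of WT hepatocyte-like cells (23.9 to 25.6) and 13.6% of N-LKO ones (12.5 to 14.7), and C8a in 35.3% (34.4 to 36.3) and 26.3% (24.9 to 27.6).

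Because Malat1, a nuclear RNA, separated the clusters, clusters on the same side of a Malat1 level of 15000 CPM were also compared, a choice made after seeing the data. Within each pair Malat1 itself was still higher in WT. The largest moderate-Malat1 clusters were cluster 0 in WT (8201 cells, Malat1 at 8816 CPM) and cluster 5 in N-LKO (2011 cells, 4584 CPM). The largest Malat1-rich clusters (15000 CPM or more) were cluster 18 in WT (333 cells, 35643 CPM) and cluster 6 in N-LKO (2054 cells, 19979 CPM). Over all genes the median log2 ratio was near 0 in these pairs, at 0.08 and 0.06. C3 was higher in N-LKO in both pairs, at 821 CPM in WT against 1631 in N-LKO in the moderate pair (log2 ratio 0.99, 0.95 to 1.03) and at 300 and 735 CPM in the rich pair (1.29, 1.09 to 1.504). C4b, Cfb and Cfi were also higher in both pairs, with log2 ratios of 0.71, 0.63 and 0.17 in the moderate pair and 0.63, 0.46 and 0.53 in the rich pair. C8a, C8b and Mbl2 were lower in both, with log2 ratios of −0.44, −0.36 and −0.27 in the moderate pair and −0.84, −0.95 and −0.56 in the rich pair. Each of these 14 ratios differed from 0 beyond counting error. Hc and C9 changed sign, from 0.15 and 0.25 in the moderate pair to −0.54 and −0.23 in the rich pair.

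**Figure D2:**
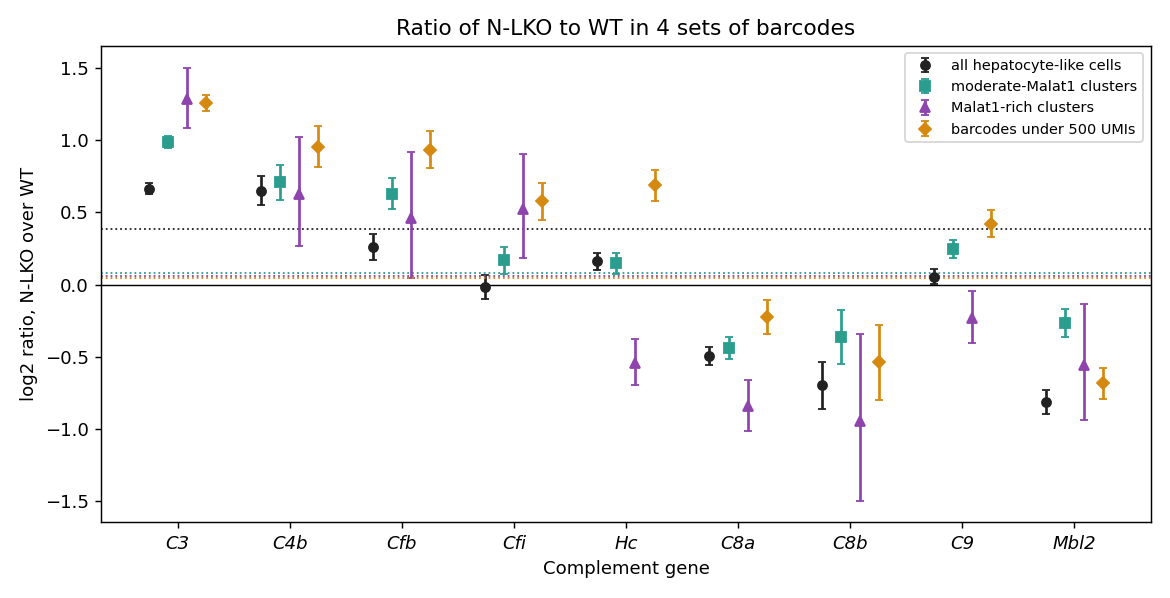
Log2 ratio of N-LKO over WT for each member, with 95% counting intervals, in all hepatocyte-like cells, in the moderate-Malat1 and Malat1-rich clusters and in barcodes under 500 UMIs. Dotted lines give the median of all genes in each set; C3 and C4b lie above 0 and C8a, C8b and Mbl2 below 0 in each of the 4 sets, while Hc and C9 cross 0.

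Levels also differed between hepatocyte-like clusters of the same library. In N-LKO, Mbl2 was at 254 CPM in cluster 5 and 66.1 CPM in cluster 6, while C4b was at 185 and 150 CPM. In WT, Mbl2 was at 305 CPM in cluster 0, 96.6 CPM in the Malat1-rich cluster 18 and 430 CPM in cluster 21, whose leading genes include the pericentral Glul, Oat and Cyp1a2. Hc was higher in cluster 18 than in cluster 0, at 601 against 408 CPM, and C8a was at 509 against 503 CPM, with overlapping intervals. The 100 WT cells that fell in cluster 5, among whose leading genes are the acute phase genes Orm1 and Saa1 and the iron hormone gene Hamp, held C3 at 1042 CPM (907 to 1191) and Cfb at 262 CPM, above the 821 and 157 CPM of WT cluster 0. Cluster 5 held Saa1, an acute phase gene, at 1013 CPM in its WT cells and 770 CPM in its N-LKO cells. Within this cluster C8a was higher in N-LKO, at 257 CPM in WT (192 to 336) against 371 CPM (354 to 389). C8b was at 58.2 and 65.6 CPM, with overlapping intervals. C3 was higher in N-LKO there (1042 and 1631 CPM) and Mbl2 lower (417 and 254 CPM), as over all hepatocyte-like cells.

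**Figure D3:**
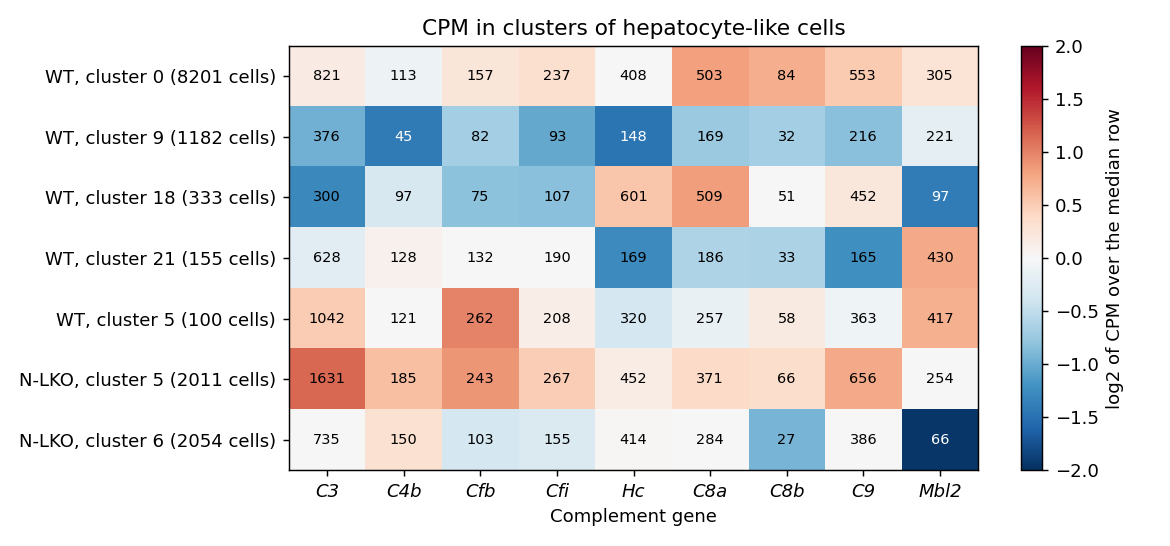
CPM of the members in clusters of hepatocyte-like cells with at least 100 cells in a library, colored by the log2 of the value over the median row. Mbl2 runs from 66.1 CPM in N-LKO cluster 6 to 430 CPM in WT cluster 21, and C3 from 300 CPM in WT cluster 18 to 1631 CPM in N-LKO cluster 5.

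Members varied with a score of zonation genes, while position in the liver lobule was not measured. Hepatocyte-like cells were split into ranges by their UMIs of pericentral and periportal genes, with at least 3 such UMIs, and 98 WT and 775 N-LKO cells held fewer. C9 was higher in the periportal range in both libraries, at 573 against 349 CPM in WT (log2 ratio of periportal over pericentral 0.71, 0.58 to 0.84) and 648 against 330 CPM in N-LKO (0.97, 0.81 to 1.14). C8a (0.58 in WT and 0.94 in N-LKO), Hc (0.74 and 0.42), C3 (0.50 and 0.54), Cfi (0.42 and 0.58) and Cfb (0.42 and 0.35) were also higher in the periportal range in both libraries, beyond counting error. Mbl2 ran the other way, at 293 against 330 CPM in WT (−0.17, −0.31 to −0.03) and 158 against 268 CPM in N-LKO (−0.76, −0.96 to −0.55). C4b did not differ beyond counting error between the ranges in either library (0.15 and −0.01), and C8b did in WT (0.64, 0.32 to 0.99) but not in N-LKO (0.06, −0.35 to 0.51). Alb, outside the complement genes, was also higher in the periportal range, at 0.67 in WT (0.65 to 0.68) and 0.05 in N-LKO (0.02 to 0.08). Whether the gradients of the members differ from such a shared rise was not tested. The difference between the libraries in these gradients was not tested. Within the periportal range C3 was at 867 CPM in WT against 1392 in N-LKO, and within the pericentral range at 612 and 956 CPM. A range is a cut on a score and not a cell type.

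**Figure D4:**
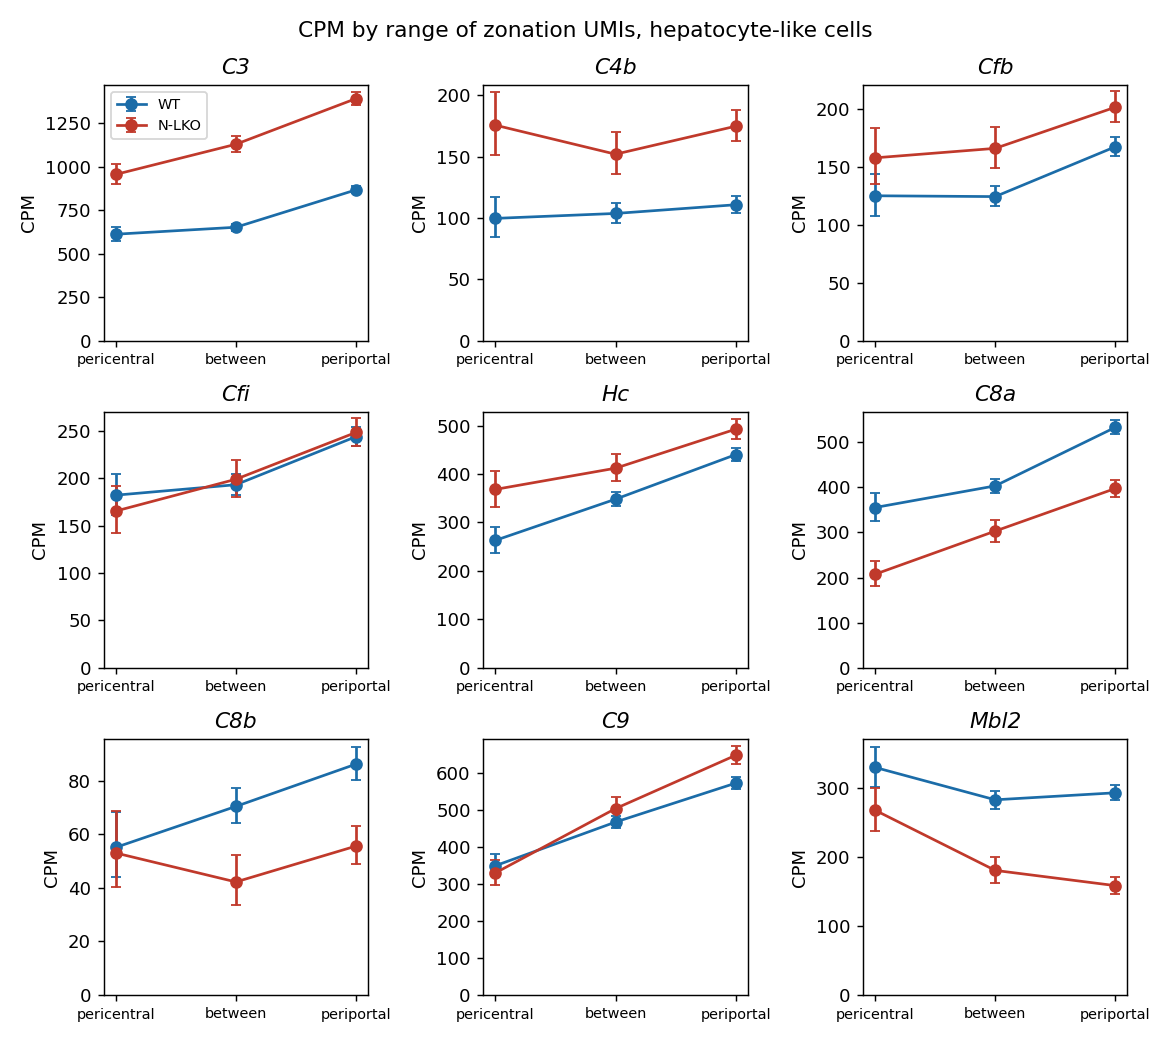
CPM of each member in hepatocyte-like cells of the pericentral, intermediate and periportal ranges, WT in blue and N-LKO in red, with 95% Poisson bars and axes from 0. Most members rise toward the periportal range, Mbl2 falls, and C3 and C4b lie higher and C8a lies lower in N-LKO in each range.

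The cells named hepatocyte-like held 84.2% of the members' UMIs in WT (83.9 to 84.5) and 49.2% in N-LKO (48.8 to 49.6), against 57.9% and 26.0% of all UMIs. The cells were mixed at set ratios before loading, so the shares of the 2 libraries are not compared. Of the members, C8a had the highest share in both libraries, 89.9% in WT and 59.6% in N-LKO, and C4b in WT (73.6%) and Cfb in N-LKO (43.6%) the lowest. In each library every member was higher in hepatocyte-like cells than in any of the 9 other classes, from 1.05-fold over the next class for C3 in N-LKO to 3.23-fold for C8a in WT. The next class for C3 was cholangiocyte-like cells, and in N-LKO the intervals of both levels overlap.

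In the other classes most of what was counted lay near the level that free RNA alone would give. That level was taken from each class's own UMIs of 10 hepatocyte genes and the profile of its library. Over the 9 classes and 9 members, the measured level was a median of 1.15 times the free RNA level in WT and 1.13 times in N-LKO. T-like and B-like cells were taken as background classes, and whether they make these proteins was not tested. There the measured level ran from 0.83 to 1.52 times in WT and from 0.79 to 1.76 times in N-LKO. Values within those ranges are read as background. In hepatocyte-like cells, where genes of other cells set the share, the measured level was 1.3004 (Mbl2) to 3.05 (C8a) times the free RNA level in WT and 1.79 (Cfb) to 4.23 (C8a) times in N-LKO. The WT value of Mbl2 lies inside the range of WT T-like and B-like cells.

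**Figure D5:**
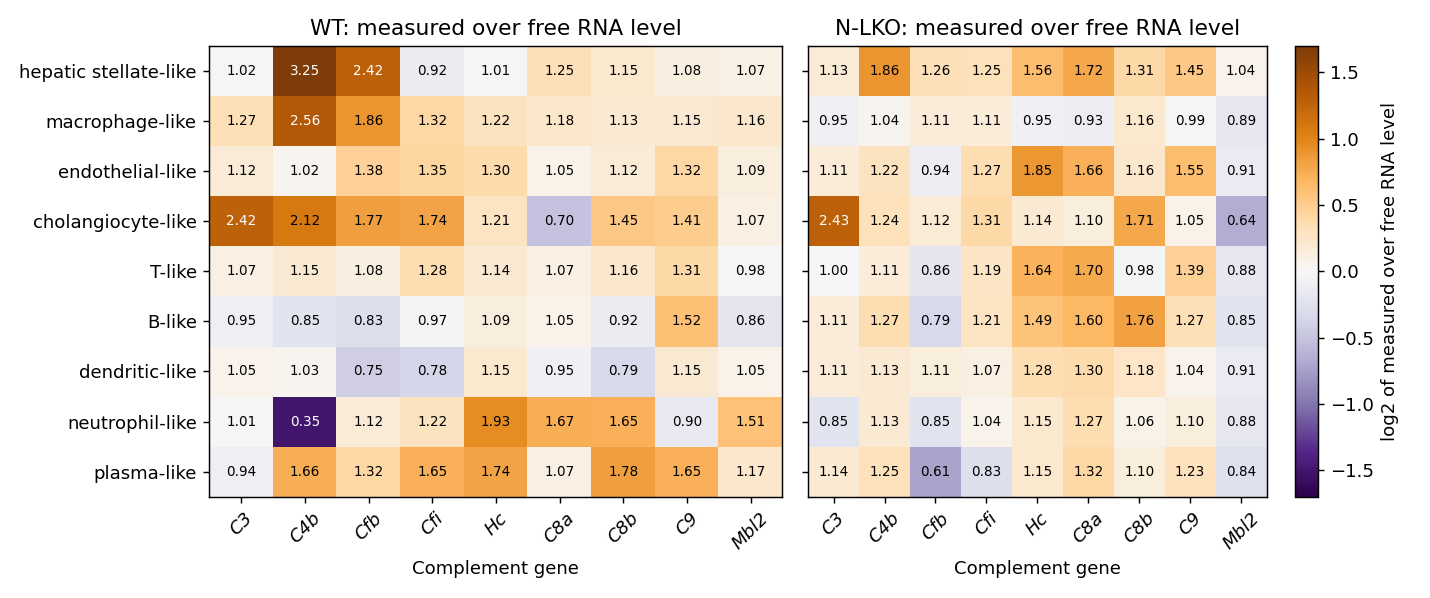
Measured CPM divided by the level that free RNA alone would give, for 9 classes (rows) and 9 members (columns), WT left and N-LKO right, colored on a log2 scale. C3 stands at 2.42 and 2.43 in cholangiocyte-like cells, C4b at 3.25 in WT hepatic stellate-like cells and 2.56 in WT macrophage-like cells, and T-like and B-like cells stay at 1.76 or below.

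In cholangiocyte-like cells, the epithelium of the bile ducts, C3 stood above the background range in both libraries. It was at 488 CPM in WT (414 to 572, from 152 UMIs in 200 cells) and 1155 CPM in N-LKO (1087 to 1226, from 1070 UMIs in 502 cells). Free RNA alone would give 202 and 476 CPM, so C3 was at 2.42 and 2.43 times that level. In WT, C4b (2.12 times, from 22 UMIs), Cfb (1.77 times, from 23 UMIs) and Cfi (1.74 times, from 26 UMIs) also stood above the range of WT T-like and B-like cells, while in N-LKO they stood at 1.24, 1.12 and 1.31 times, within it. Hc in WT neutrophil-like cells (1.93 times, from 21 UMIs) and C8b in WT plasma-like cells (1.78 times, from 4 UMIs) passed that range too. So did C8a (1.67 times) and C8b (1.65 times) in WT neutrophil-like cells. In WT plasma-like cells Hc (1.74 times), C4b (1.66 times), and C9 and Cfi (both 1.65 times) did as well. The WT values of Cfb and Cfi in cholangiocyte-like cells are therefore not read as above background. The log2 ratio of C3, N-LKO to WT, was 1.24 (0.996 to 1.497), close to the 1.26 of the free RNA profile. Of the members 1 (C3) was at least 2-fold higher and 1 (Mbl2) at least 2-fold lower in this class, where 12.7% and 12.6% of all genes were. Alb was at 6585 and 3519 CPM there, and the markers Epcam and Spp1 were among the leading genes of the cluster.

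C3 was highest of all in a small unnamed cluster of 35 WT and 79 N-LKO cells, in which each of 6 mesothelial markers was raised (Upk3b at 357 and 429 CPM, Msln at 132 and 235 CPM, both at 0 in the median N-LKO cluster). C3 was at 2914 CPM in WT (2474 to 3411) and 2742 CPM in N-LKO (2458 to 3050), and the intervals overlap. C4b was at 244 CPM (130 to 418, from 13 UMIs) and 235 CPM (157 to 337), while C8a was at 18.8 and 64.7 CPM (1 and 8 UMIs). Serping1, the C1 inhibitor, was at 809 and 736 CPM in the same cells. This cluster holds under 50 WT cells and was not compared between the libraries further.

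In hepatic stellate-like cells, the vitamin A-storing cells that make collagen, C4b was at 63.6 CPM in WT (52.1 to 76.9) and 107 CPM in N-LKO (88.9 to 128), 3.25 and 1.86 times the free RNA level. Cfb was at 59.4 CPM in WT, 2.42 times that level, and at 89.4 CPM in N-LKO, 1.26 times. C3 was at 121 CPM in WT against 486 in N-LKO (log2 ratio 2.01, 1.78 to 2.25), but at 1.02 and 1.13 times the free RNA level, so its ratio is not read as a difference in these cells. Cfi (0.916 and 1.25 times), Hc (1.01 and 1.56 times) and C9 (1.08 and 1.45 times) also stood within the background range and are not read as differences either. These 4 members were the ones at least 2-fold higher in this class, where 10.6% of all genes were, and none was 2-fold lower, where 8.36% were. The cluster also carried macrophage markers (10 of 10 detected, summed to 2113 CPM in WT against 1403 in N-LKO) and endothelial markers (8 of 8, 3665 and 1822 CPM) beside its own 8 markers (8724 and 4854 CPM), and their part in these levels was not tested.

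Macrophage-like cells, which join Kupffer cells and other macrophages, held C4b at 68.6 CPM in WT (58.7 to 79.8), 2.56 times the free RNA level, and at 57.7 CPM in N-LKO (51.7 to 64.2), 1.04 times. Cfb was at 62.5 CPM in WT, 1.86 times that level, and 76.1 CPM in N-LKO, 1.11 times. This WT value lies under the 1.93 times of Hc in WT neutrophil-like cells and is likewise not read as above background. C3 was at 206 and 397 CPM, at 1.27 and 0.95 times. No member was at least 2-fold higher or lower in this class, where 4.8% of all genes were higher and 6.3% lower. In endothelial-like cells 3 members (C3, C4b and Hc) were at least 2-fold higher, where 11.9% of all genes were, and none was 2-fold lower, where 7.34% were. Hc in N-LKO stood at 1.85 times the free RNA level there, just above the highest value of T-like and B-like cells, and the other members stood within their range. Over the 9 classes other than hepatocyte-like, C3 was higher in N-LKO in 9 and Mbl2 was lower in 9, with median log2 ratios of 1.24 and −0.98, the same directions as in the free RNA profile.

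The other 41 complement genes were described by list in hepatocyte-like cells. Of the 10612 genes with at least 5 CPM there, 7500 were higher in N-LKO, with a median log2 ratio of 0.39 over all of them. Of 10 soluble inhibitors, each measured, 6 were higher and 4 lower in N-LKO, with a median log2 ratio of 0.06 and none past 2-fold. C4bp, the cofactor for cutting C4b protein, was at 292 CPM in WT against 505 in N-LKO (log2 ratio 0.79, 0.73 to 0.85). Clu (628 and 898 CPM) and Vtn (422 and 474 CPM), which block the terminal complex, had log2 ratios of 0.51 and 0.17. Of 6 lectin initiators 4 were lower, with a median of −0.98, and the 3 at least 2-fold lower, where 2.42% of all genes were, were Fcna (15.3 and 3.82 CPM), Colec10 (9.15 and 2.20 CPM) and Colec11 (12.7 and 3.94 CPM). In hepatocyte-like cells these stood at or under 1.03 times the free RNA level, and stellate-like cells held Colec11 at 991 CPM in WT against 482 in N-LKO. Of 8 receptors 6 passed 5 CPM and 5 of these were at least 2-fold higher, where 21.8% of all genes were: C3ar1 (3.50 and 7.99 CPM), C5ar1 (1.90 and 7.29 CPM), Itgam (2.02 and 7.18 CPM), Itgax (2.20 and 8.33 CPM) and Itgb2 (5.998 and 12.3 CPM). They stood at 0.80 to 1.74 times the free RNA level. Of 5 membrane inhibitors 2 were higher and 3 lower, and Cd46 was past 2-fold (3.80 and 14.9 CPM). Of 7 classical initiators 6 were higher, with a median of 0.46, near the median of all genes. C1qa, C1qb and C1qc were among these 6, and the part of free RNA in their ratios was not tested. Of the terminal components C6 was higher and C8g lower. Of the 2 genes of the alternative list, Cfp passed 5 CPM, at 11.9 and 12.4 CPM.

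Some of the other complement genes were abundant in other classes. C1qa, C1qb and C1qc, the chains of C1q, lay between 1239 and 1721 CPM in macrophage-like cells, where Vsig4, a receptor for C3 fragments, was at 1023 CPM in WT against 707 in N-LKO. Stellate-like cells held Masp1 at 654 and 413 CPM and C1qa at 497 and 305 CPM, in a cluster that also carried macrophage markers. Endothelial-like cells held Cd55, which speeds the decay of C3 convertases, at 420 and 312 CPM, and B-like cells at 287 and 225 CPM. Cholangiocyte-like cells held Clu at 5891 and 5848 CPM. In T-like, dendritic-like, neutrophil-like and plasma-like cells the leading genes included Clu in each, with Vtn, C4bp, C1qa or C1qb. Clu stood at 0.91 to 1.41 times the free RNA level in these classes and is read as background. Vtn, at 1.12 and 0.89 times in T-like and 1.13 and 0.86 times in plasma-like cells, is read likewise. C4bp stood at 1.02 times in WT and 1.85 times in N-LKO T-like cells, and C1qb at 2.69 and 2.77 times in dendritic-like cells.

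Members were set beside other secreted liver proteins in hepatocyte-like cells. Each of 20 acute phase genes was higher in N-LKO, with a median log2 ratio of 0.80, where 7500 of all 10612 genes were higher, and 7 were at least 2-fold higher, where 21.8% of all genes were, among them Saa1 (78.5 and 470 CPM), Lcn2 (14.97 and 287 CPM) and Hp (615 and 1641 CPM). Of 15 secreted genes outside the acute phase, 12 were lower, with a median of −0.16, and Alb was past 2-fold (21795 and 10635 CPM). C3 and C4b (0.67 and 0.65) lay just under the acute phase median, and C8a, C8b and Mbl2 under the median of the other secreted genes. Cfb, also known to rise in the acute phase response, was at 0.26, under the 0.39 median of all genes. Ratios also moved with the span of a gene: with all genes cut into 5 equal bins of span, the median log2 ratio rose from −0.07 in the shortest bin (median span 5.16 kb) to 0.95 in the longest (median span 137 kb). Mbl2 (6.75 kb) and Cfb (6.15 kb) lie in the shortest bin, C4b in bin 2 (median 0.13), C3 in bin 3 (0.35) and Cfi, Hc, C8a, C8b and C9 in bin 4 (0.64). The part of span in the members' ratios was not tested.

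Over the 41 groups of 1 cluster in 1 library with at least 50 cells, the gene most like each member was taken by Pearson's r of log2(CPM + 1), as a description only, since the groups share their libraries and free RNA. C3 was most like Hp (r = 0.84) and Ppl (0.83), and Cfb most like Serpinf2 (0.84) and Hpx (0.83). Cfi was most like Fga and Fgg (both 0.93), and C9 most like Fgb and Fgg (both 0.93), which encode fibrinogen chains. Hc was most like Serpinc1 (0.94) and Pzp (0.93), C8a most like Azgp1 (0.95) and Apoa5 (0.94), C8b most like Alb (0.87) and Elovl2 (0.86), and C4b most like Vnn1 (0.82) and Akap1 (0.79). Mbl2 was most like Apoa2 (0.96) and Apoc4 (0.95). Among the members, C8a and Hc were alike (0.92), while C3 and Mbl2 were not (0.18).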

How the data were processed

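Droplet libraries (10x 3′) of WT and N-LKO liver, 1 each, were aligned and counted by the authors with Cell Ranger (7.1.0 per the file headers). The deposited values are UMI counts, whole and not normalized, for each gene in each barcode. Whether intron reads were counted is not given in the sources used here. The authors clustered with Seurat, and their cell annotation was not used here, so names rebuilt here may differ from those of the study.

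The filter on barcodes was 1000 or more UMIs, 400 or more genes and 30% or less mitochondrial UMIs. Doublets over a Scrublet score of 0.25 (scanpy 1.11.5), 1723 in WT and 2364 in N-LKO, were left out. Complement genes were kept out of the 2000 variable genes, 30 principal components were taken, and leidenalg 0.10.2 was run at a resolution of 0.3. Clusters were named from 14 marker lists (score at least 0.15, 3 markers raised, mixed above 0.7 of the best score), with thresholds set after seeing the data. UMIs were summed per class (at least 50 cells in both libraries) as CPM with exact Poisson intervals, ratios had 0.5 UMI added and conditional binomial intervals, and shares had Clopper-Pearson intervals. Genes with at least 5 CPM in 1 library entered counts, and the ratio script was tested on simulated data. TMM came from edgeR 4.0.16. Genes named beside the members followed a rule of level and fold. Members and lists were chosen with earlier results of these data known. 1 gene of the lists is not reported here by name.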

Additional observations from a re-analysis of the deposited data

Results flagged for a closer look

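C8a was lower in N-LKO hepatocyte-like cells, at a log2 ratio of −0.50, and higher beyond counting error in 3 of the 9 other classes, which drew attention because the direction was opposite. The log2 ratio of C8a was 0.84 (0.42 to 1.26) in hepatic stellate-like cells, 0.41 (0.16 to 0.66) in endothelial-like cells and 0.54 (0.23 to 0.87) in T-like cells. In macrophage-like cells C8a was lower, at −0.47 (−0.74 to −0.19), as in hepatocyte-like cells. With 1 library per group the difference between classes was not tested. In the same N-LKO classes C8a stood at 1.72, 1.66 and 1.701 times the free RNA level, each above that level by its counting interval. The range of T-like and B-like cells that is read as background is 0.79 to 1.76 times. The T-like value of C8a helps set this range, so its place inside was fixed in advance. In barcodes under 500 UMIs the log2 ratio of C8a was −0.23 (−0.34 to −0.11). The part of free RNA in these ratios was not tested.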

How the results depend on the processing

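No paired analysis was possible because each group has 1 library. In hepatocyte-like cells C8a, C8b and Mbl2 stayed lower in N-LKO under all 16 alternatives that gave a value, of which the one without the 5 CPM minimum repeats the main values. With free RNA subtracted at its estimated share the median log2 ratio of the members became −1.37 and 7 members were at least 2-fold lower, as were 16.2% of the 8065 genes over 3 UMIs in both libraries after subtraction. C3 then became −0.80, C4b −0.41, Cfb −1.27, Cfi −1.53, Hc −1.37 and C9 −1.39. At the lowest share over the reference genes, chosen after seeing the data, C3 was 0.06, C4b 0.25, Cfb −0.37, Hc −0.52 and C9 −0.58. TMM and the median of ratios size factor each left 2 members at least 2-fold lower, as were 8.37% and 8.49% of all 10612 genes. Under TMM Cfb was −0.21, Hc −0.32 and C9 −0.42, and under the size factor Cfb was −0.22, Hc −0.32 and C9 −0.43. Cells with 2000 UMIs or more gave −0.016 for Hc and −0.091 for C9, no doublet removal gave −0.037 for C9, and the total without mitochondrial genes gave −0.029 for C9. The Malat1-rich clusters, compared after seeing the data, gave −0.54 for Hc and −0.23 for C9. In macrophage-like cells subtraction gave −1.87 for Cfb and −0.84 for Cfi, and in stellate-like cells it gave −0.66 for Cfb. A mitochondrial limit of 10% gave −0.37 for both Cfb and C8a in stellate-like cells and −0.13 for Cfi in endothelial-like cells, and left 17 N-LKO hepatocyte-like cells, too few for a value. The members' percent of UMIs in hepatocyte-like cells was 78.0 in WT and 45.1 in N-LKO at a UMI minimum of 500, 83.7 and 47.8 without a mitochondrial limit, 82.7 and 48.0 without doublet removal, 94.0 and 82.4 after subtraction and 93.8 and 71.1 in cells with 2000 UMIs or more. Hepatocyte-like cells with a UMI of any member were 91.6% in WT and 92.7% in N-LKO, and 95.8% and 98.0% without thinning. The cause of these changes was not tested.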
